A study of Mus musculus with 12 samples.

Results

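Control 1, Control 2, Induced 3 and Induced 4 are 4 of the 12 mouse breast tumours profiled by bulk RNA-seq in this series, and they were compared with the other 8, which are Control 3 to Control 5 and Induced 1, 2, 5, 6 and 7. The 4 were selected on their positions on the first principal component of the gene counts, and the split crosses treatment. The same counts therefore chose the 4 and describe them, so differences between the 4 and the 8 are given as values per tumour with no test. All 12 tumours grew from E0771 cells, a triple-negative mammary carcinoma line of C57BL/6 mice, placed in the mammary fat pad of Tie2CreER;ERKi C57BL/6J mice and taken at day 22. The Tie2 promoter drives a tamoxifen-dependent Cre in endothelial cells, and Cre switches on a knock-in allele of endorepellin, the C-terminal fragment of the basement membrane proteoglycan perlecan. The 5 control mice had a control injection and the 7 induced mice had tamoxifen. Both groups carried both alleles, so the injection is the labelled difference, and the tumour cells themselves carry neither allele. The content of the control injection and the age of the mice are not stated in the labels, and nothing says which tumours came from which litter or cage.

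A tumour grown from a cell line holds the injected cells together with host cells. Host fibroblasts lay down fibrillar collagens and the small proteoglycans that bind them, macrophages and neutrophils enter from the blood, and vessels bring endothelium, pericytes and basement membrane. A piece of tumour can also carry muscle or fat from its bed. In bulk RNA a lower level can mean fewer cells of a type or less RNA per cell, and these cannot be told apart. A count of reads also depends on the library: long and short transcripts, polyadenylated and other RNAs need not be recovered equally in every preparation.

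Total counts ran from 18993192 to 28372821 per tumour, so a count of a few reads limits the precision for low genes. The mean total was 24806777 in the 4 and 21750058 in the 8, and the 2 sets overlapped (difference 3056719, exact permutation test over all 495 choices of 4 tumours, two-sided, p = 0.154, smallest possible p 0.00202). Without Induced 7, the deepest of the 8, the same exact permutation test gave p = 0.0273, and without Induced 3 it gave p = 0.0303, so this result depends on which tumours are included. The share of induced tumours was 2 of 4 against 5 of 8 (Fisher's exact test, two-sided, p = 1). In the library numbers of the table, which run from 1 to 14 with gaps, Control 2 and Control 1 have 5 and 6 and Induced 4 and Induced 3 have 11 and 12. What the numbers stand for is not stated, and their part in the split was not tested. Epithelial markers were close to the floor in every tumour, with Krt8, a keratin of simple epithelium, at 0.827 to 2.31 CPM (counts scaled to the size of the library), while the endothelial marker Pecam1 was at 24.0 to 45.4 CPM and the mesenchymal collagen gene Col3a1 at 306 to 1686 CPM. The keratins of a carcinoma were thus near absent in both sets.

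The first principal component held 40.85% of the variance of log2 CPM and the second 17.76%. On the first, Control 1 lay at 83.68, Induced 4 at 69.55, Control 2 at 53.11 and Induced 3 at 43.24. The nearest of the 8 was Control 5 at -5.449, followed by Induced 5 at -17.92, and the farthest was Induced 6 at -42.93. The gap between Induced 3 and Control 5 was 38.5% of the whole range. These are the values that set the 4 apart. On the second component the 4 were themselves spread from end to end of the plot, with Control 1 at 63.05 and Induced 3 at -50.46, the highest and the lowest of all 12.

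**Figure D1:**
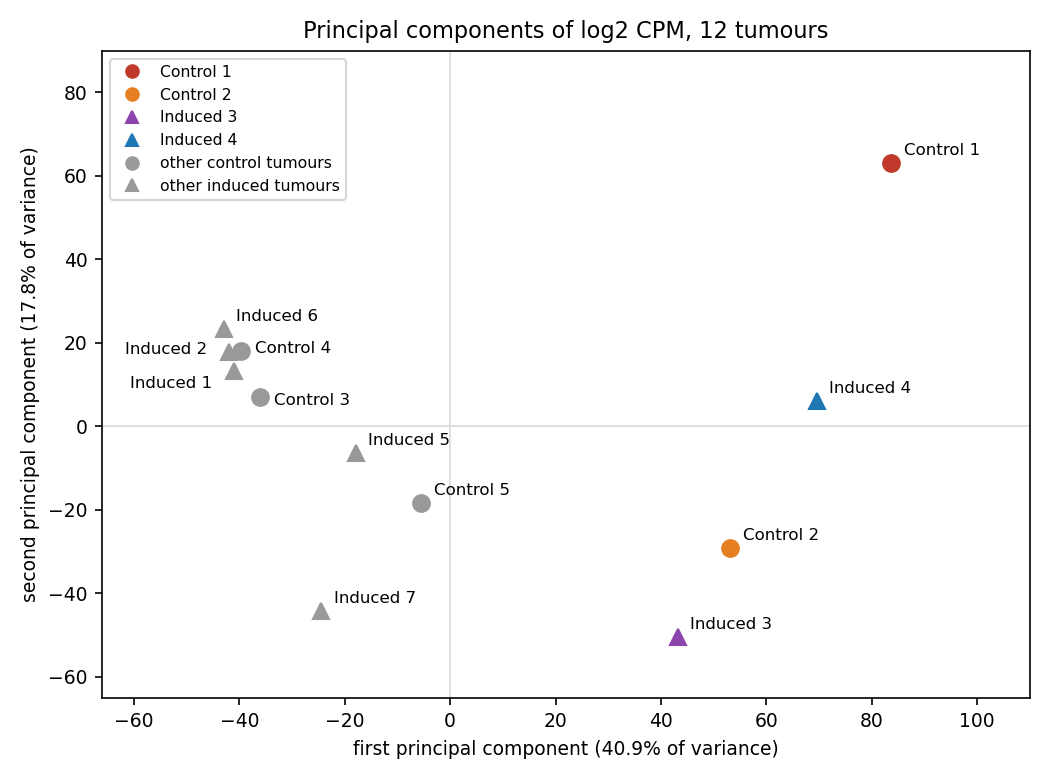
Position of the 12 tumours on the first (x) and second (y) principal component of log2 CPM, with the share of variance on each axis; circles are control and triangles induced tumours, and the 4 tumours are coloured. The 4 lie between 43.24 and 83.68 on x and all 8 others below 0, while on y the 4 span from -50.46 to 63.05.

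Over 16955 genes with enough counts, a gene was counted as called where its fitted log2 difference of the 4 over the 8 was at least 1 in size and the 4 tumours did not overlap the 8. By this rule 525 genes (3.1%) were higher in the 4 and 680 (4.01%) were lower. With no limit on size, the 4 lay above all 8 in 1819 genes (10.7%) and below all 8 in 2405 (14.2%). Since these genes helped to set the 4 apart, the counts say how wide the split is and are no evidence for it. Each of the 4 taken alone was above all 8 in a like number of genes, 4753 (28%) for Control 1, 4359 (25.7%) for Control 2, 4442 (26.2%) for Induced 3 and 4392 (25.9%) for Induced 4. Below all 8 were 5014 genes (29.6%) in Control 1, 4260 (25.1%) in Control 2, 4435 (26.2%) in Induced 3 and 4465 (26.3%) in Induced 4.

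The split was also described inside each treatment. Control 1 and Control 2 against the other 3 control tumours gave 1162 genes higher (7.32%) and 982 lower (6.19%) of 15871. Induced 3 and Induced 4 against the other 5 induced tumours gave 737 higher (4.67%) and 1035 lower (6.55%) of 15793. The 2 comparisons share no tumour, although all 12 entered the component that named the 4. Genes shared between them are therefore partly set by that choice and are no evidence for the split. Of 15282 genes in both, 426 were called higher in both, which is 40.1% of the control calls and 63.3% of the induced calls, and 584 were called lower in both, 62.3% and 63.9% of each. The lower genes were therefore shared to about the same share of each list, and the control tumours had a longer list of higher genes. Absence of overlap is easier to reach with 2 against 3 tumours than with 2 against 5, so the lengths of the lists are not like for like.

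Most of the better measured called genes sat at about the same level in all 4 tumours, whatever the treatment. Of the 247 called higher with a mean log2 CPM over 1, 181 had an SD below 0.5 on the log2 scale within the 4 and within the 8, and 9 had an SD above 1 within the 4. Of the 305 called lower, 228 had an SD below 0.5 in both sets and 0 had an SD above 1. Since a call requires that the sets do not overlap, these counts describe the called genes and no others. The share of all genes with so small an SD is not given beside them, so they do not show that called genes vary less than others.

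Klhl11 (chr11:100462614-100472741 on GRCm38, minus strand), an adaptor of cullin 3 ubiquitin ligases, shows the pattern. It was at 14.2 CPM in Control 1, 14.5 in Control 2, 18.0 in Induced 3 and 14.97 in Induced 4, and between 1.597 and 3.16 CPM in the 8. The 4 tumours lay within 4 CPM of one another and far above the highest of the 8, with a mean of 15.4 ± 1.74 CPM (SD, n = 4) against 2.28 ± 0.57 CPM (SD, n = 8), a log2 difference of 2.75. Atp7a (chrX:106027276-106124926, plus strand), a copper-transporting ATPase, was at 32.3, 29.8, 31.0 and 28.7 CPM in Control 1, Control 2, Induced 3 and Induced 4. Its range in the 8 was 2.97 to 7.09 CPM, and the log2 difference was 2.55. Pdpr (chr8:111094630-111137074, plus strand), the regulatory subunit of pyruvate dehydrogenase phosphatase, was at 28.3, 37.3, 48.1 and 30.8 CPM in the 4 in the same order, against 3.21 to 8.10 CPM in the 8 (log2 difference 2.66). Induced 3 was the highest of the 4 there, and Control 1 the lowest. Zfp871 (chr17:32765496-32788287, minus strand), a zinc finger gene, was at 31.3, 34.6, 32.0 and 25.1 CPM against 4.70 to 7.38 CPM in the 8 (log2 difference 2.46).

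The rule for named genes took the 15 genes with the largest difference in each direction among called genes whose mean log2 CPM exceeded 1 and whose symbol is not a predicted name. Besides those 4, the higher ones fell into a matrix group and an immune group, which are described with the stroma, and a mixed remainder. Per2, a repressor of the circadian clock, was at 6.52, 10.1, 21.7 and 10.9 CPM in Control 1, Control 2, Induced 3 and Induced 4, against 1.27 to 3.31 CPM in the 8 (log2 difference 2.57). Induced 3 had the most and Control 1 the least, but every one of the 4 was above every one of the 8. Galnt2, which starts mucin-type O-glycosylation, was at 9.85 to 11.8 CPM in the 4 and 0.824 to 4.03 CPM in the 8, but 90% of its exonic bases are shared with the readthrough model Gm20388 on the same strand, so its counts depend on how shared reads were assigned. Pcdhgb1, a clustered protocadherin, shares 54.6% of its exonic bases with Pcdhga4, and its log2 difference of 2.62 is uncertain for the same reason.

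Several well-known genes outside that rule, chosen after their values were seen, made the same step. Atm, the kinase that starts the response to DNA double-strand breaks, was at 60.7, 72.8, 80.0 and 74.1 CPM in Control 1, Control 2, Induced 3 and Induced 4, against 18.1 to 24.1 CPM in the 8. Usp9x, a deubiquitinase, was at 131, 124, 133 and 99.8 CPM against 28.6 to 46.7 CPM. Lmbrd2, a membrane protein gene, was at 19.7 to 21.7 CPM in the 4 and 3.63 to 6.66 CPM in the 8. The 4 tumours were at least 2 times as high as the highest of the 8 in all 3, and the order of the 4 differed from gene to gene.

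Among the lower genes, Dpysl2 (chr14:66802864-66868688, minus strand), a regulator of microtubules, showed the step at a high level. It was at 53.5, 71.1, 61.6 and 52.6 CPM in Control 1, Control 2, Induced 3 and Induced 4, and at 173 to 243 CPM in the 8, with a mean of 59.7 ± 8.59 CPM (SD, n = 4) against 205 ± 25.3 CPM (SD, n = 8) and a log2 difference of -1.78. The lowest of the 8 was more than 2 times the highest of the 4. Sox9, a transcription factor of cartilage and of epithelial progenitors and chosen after its values were seen, was at 84.7, 91.5, 92.2 and 98.9 CPM against 211 to 373 CPM. Nfib, a transcription factor chosen in the same way, was at 17.4 to 20.6 CPM in the 4 and 37.1 to 74.1 CPM in the 8. Hoxc8, a homeobox gene, was at 3.86, 1.48, 2.17 and 2.21 CPM against 6.94 to 25.6 CPM (log2 difference -2.44). Pou2af1, a coactivator known from B cells, was at 3.86, 3.10, 4.45 and 2.32 CPM against 8.87 to 23.3 CPM (log2 difference -2.05). The B cell marker Ms4a1 did not follow it: Control 4 and Control 5 had 7.60 and 4.93 CPM and the other 10 tumours 2.07 CPM or less.

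The other lower genes of the rule were mostly short or non-coding. Col9a1, a cartilage collagen, had the largest difference (-2.58), with 0.410, 0.457, 1.06 and 0.809 CPM in the 4 and 2.35 to 6.90 CPM in the 8. Kcnq1ot1 (chr7:143203458-143296549, minus strand), the long non-coding RNA of an imprinted cluster, was at 13.3, 14.6, 11.9 and 14.5 CPM against 28.9 to 87.2 CPM. The pseudogenes Rps15a-ps6, Rps6-ps3 and Rps12-ps4 had log2 differences of -2.33, -2.06 and -2.03. They copy ribosomal protein mRNAs, so reads of the parent genes could be counted there, and Rps12-ps4 also lies on the exons of Nphs1 for 46.1% of its length. Others were the microRNA loci Mir703 and Mir7688, the small nucleolar RNAs Snord104 and Snora33, the mitochondrial tRNA gene mt-Tl2 and the dynein gene Dnah14, with differences from -2.11 to -1.75. Snora33 lies wholly on exonic bases of Rps12, a ribosomal protein gene that was itself lower, so their counts cannot be told apart. Mir703 lies inside the gene Cfap299.

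**Figure D2:**
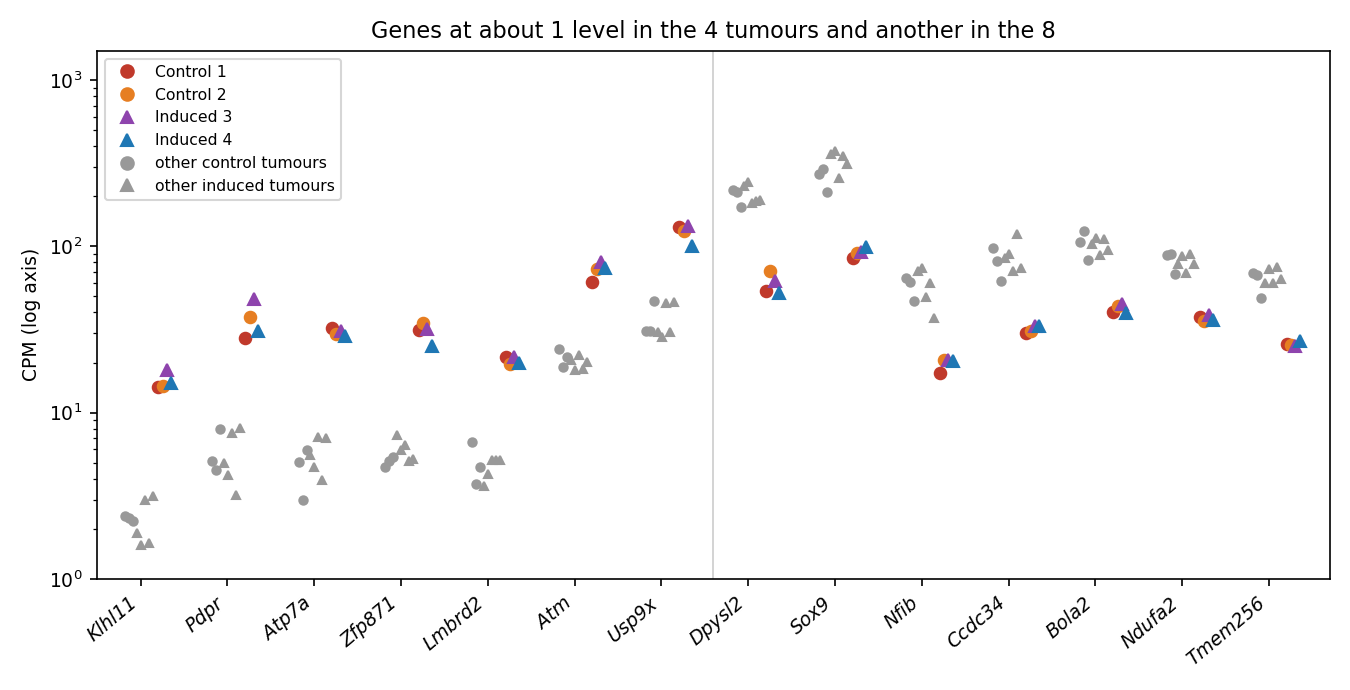
CPM on a log axis for 7 genes higher and 7 genes lower in the 4 tumours, 1 point per tumour; the 4 are coloured and the 8 grey, circles control and triangles induced. The genes were taken from called genes with an SD below 0.5 in both sets after their values were seen, and in each of them the 4 coloured points lie close together and apart from all 8 grey ones, as for Klhl11 with 14.2 to 18.0 CPM against 1.597 to 3.16 CPM.

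Gene type and length differed between the called genes and the rest. Protein-coding genes were 81.4% of all genes in the fit, 61.1% of those called higher and 30.7% of those called lower. Pseudogenes were 4.65% of all and 22.1% of those called lower, and loci of the class that GENCODE lists as still to be verified by experiment were 3.56% and 19.3%. The median coding length was 2031 bases for called-higher genes and 594 for called-lower genes, against 1380 over all genes that have one. Only 61.3% of the called-higher and 30.7% of the called-lower genes have a coding length, so these medians speak for the protein-coding ones.

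Across all abundant coding genes the difference between the 4 and the 8 was graded with coding length. Over 9379 genes with a mean log2 CPM over 3, split into 10 groups by coding length, the median log2 difference of the 4 over the 8 was -0.489 in the shortest group (111 to 543 bases), 0.0014 in group 5 (1182 to 1404 bases) and 0.389 in the longest (3579 to 26397 bases). Every step from one group to the next was upward. Across genes the log2 difference and log2 coding length had a Pearson r of 0.494 and a Spearman rho of 0.524, given as a description, since genes of a tumour share its library and are not independent replicates.

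This gradient was nearly equal in the 4 tumours. From the shortest to the longest group, the median level relative to the mean of the 8 went from -0.493 to 0.298 in Control 1, from -0.477 to 0.426 in Control 2, from -0.496 to 0.465 in Induced 3 and from -0.499 to 0.321 in Induced 4. None of the 8 left the band from -0.127 to 0.122 in any group. The slope per doubling of coding length was 0.193, 0.227, 0.232 and 0.196 log2 units in Control 1, Control 2, Induced 3 and Induced 4, and it lay between -0.0614 and 0.0384 in the 8. All 4 were outside the range of the 8 and none of the 8 came near them, with Control 5, the nearest on the first principal component, also the highest of the 8 here.

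**Figure D3:**
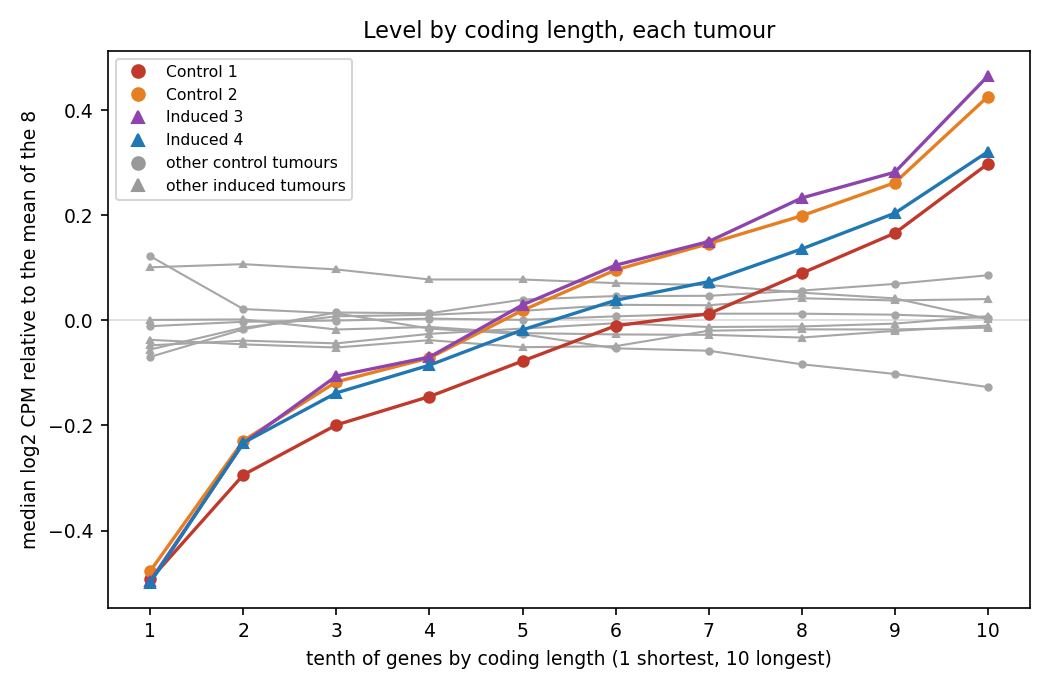
Median log2 CPM of each tumour relative to the mean of the 8 (y) in 10 groups of 9379 abundant coding genes ordered by coding length (x, 1 is the shortest); coloured lines are the 4 tumours, grey lines the 8. The 4 coloured lines climb from about -0.5 to between 0.298 and 0.465, while the grey lines stay between -0.127 and 0.122.

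With genes split into 3 groups by coding length and 3 by the length of the 3' untranslated region, the latter moved the median little where the coding part was long: 0.236, 0.228 and 0.279 from the shortest to the longest 3' region. Where the coding part was short the medians were -0.397, -0.237 and -0.0888, and in between -0.0578, 0.0134 and 0.0958. A long 3' region thus went with a smaller deficit among genes with short coding parts. Over 10 groups by GC content of the transcript the median went from 0.0642 at the lowest GC to -0.0835 at the highest, a far smaller span than by length.

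The makeup of the libraries moved with this gradient. Genes with a coding part of 3000 bases or more held 14.9% to 15.4% of the counts of the genes in the fit in the 4 tumours and 10.2% to 11.8% in the 8. Those under 1000 bases held 32.6% to 33.0% in the 4 and 38.3% to 42.8% in the 8. The 100 most counted genes took 17.3% to 18.7% of all counts in the 4 and 21.9% to 24.7% in the 8. In none of these 3 measures did the 4 overlap the 8. The part of transcript length or library preparation in the split was not tested. After the trend with coding length was removed from every tumour, 424 of the 525 genes were again called higher and 579 of the 680 again lower, and the gap on the first component was 36% of the range. The removal left genes without a coding length as they were, and only 322 of the 525 and 209 of the 680 have one. These counts and this gap therefore do not show how far the called genes depend on coding length. With the trend of whole transcript length removed instead, 639 were higher and 442 lower, among them 433 of the 525 and 384 of the 680.

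Ribosomal proteins, whose mRNAs are short and very abundant, were lower in the 4. All 27 measured genes of the cytosolic ribosomal protein list had a negative difference, with a median log2 difference of -0.62 against 0.01 over all genes. Of them 17 had no overlap and 4 were called (Rps12, Rplp1, Rps20 and Rps15), where 14.2% of all genes were below all 8 and 4.01% called lower. Rps12, which shares 13.7% of its exonic bases with small nucleolar RNAs it hosts, was at 1232, 1698, 1782 and 1511 CPM in Control 1, Control 2, Induced 3 and Induced 4 and 2848 to 4359 CPM in the 8. Rplp0, a longer member of the same list, was at 2221, 2525, 2610 and 2355 CPM against 2729 to 3941 CPM. The log2 difference was -1.17 for Rps12 and -0.37 for Rplp0, and the sets did not overlap in either. Summed over the list, the 4 tumours held 32570 to 42020 CPM and the 8 held 50830 to 70940 CPM. With the coding length trend removed the median was -0.40.

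Nuclear-encoded subunits of the respiratory chain, most of them also short, had a median of -0.45, with 18 of 25 lower, 14 of them without overlap and 2 called, where 14.2% of all genes were below all 8 and 4.01% called lower. Ndufa2, a subunit of complex I, was at 37.7, 35.5, 38.8 and 36.0 CPM in the 4 and 67.9 to 90.3 CPM in the 8 (log2 difference -1.13), with 11.5% of its exonic bases on those of Tmco6. Sdhb, a subunit of complex II with a coding part of 846 bases, overlapped, with 98.8 to 112 CPM in the 4 and 84.5 to 132 CPM in the 8. After removal of the coding length trend the list's median was -0.12. The mitochondrially encoded mRNAs behaved otherwise: all 13 were lower on average (median -0.83), but 0 were called and the sets overlapped in every one. The mRNA of mt-Co1, a subunit of cytochrome oxidase, was at 5498, 7313, 7573 and 6067 CPM in the 4 and from 7356 (Induced 7) to 19054 CPM (Induced 2) in the 8. Over the list, Control 4, Control 5 and Induced 7 had levels of -0.61, -0.59 and -0.83 log2 relative to the mean of the 8, within the -1.11 to -0.47 of the 4. The other 5 tumours of the 8 were all above them, at 0.10 to 0.78.

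RNAs kept in the nucleus also differed. The list of 9 nuclear and structural RNAs had a median of -0.86, with 3 called lower and 1 higher, where 4.01% and 3.1% of all genes were called. The list's level was -0.84 to -1.11 in the 4, and Induced 7 of the 8 was as low, at -0.88. Malat1, an abundant nuclear long non-coding RNA, was at 930, 1141, 872 and 739 CPM in Control 1, Control 2, Induced 3 and Induced 4 and 1216 to 3982 CPM in the 8 (log2 difference -1.44). Xist, the RNA that coats the inactive X chromosome, went the other way, with 197, 48.9, 36.8 and 77.3 CPM in the 4 and 10.7 to 34.0 CPM in the 8, although 12.6% of its exonic bases are shared, mainly with its antisense partner Tsix. Neat1, a scaffold of nuclear bodies, overlapped, with 524 to 539 CPM in the 4 and 420 to 775 CPM in the 8.

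The working name of the 4 tumours was a shift towards stroma, and the 4 did not carry it equally: it was large in Control 1 and Induced 4, small in Control 2 and not seen in the list levels of Induced 3. The level of each list was taken in every tumour as the median over its genes of log2 CPM minus the mean of the 8. For fibroblasts and fibrillar matrix this was 2.82 in Control 1 and 1.45 in Induced 4, against 0.76 in Control 2 and 0.27 in Induced 3, and from -0.27 to 0.39 in the 8. Induced 3 lay within the range of the 8 and Control 2 above it, with 14 of the 25 genes above all 8, beside 25.7% of all genes. Small leucine-rich proteoglycans, which bind collagen fibrils, were at 4.31 in Control 1, 2.61 in Induced 4, 0.78 in Control 2 and 0.15 in Induced 3, with the 8 from -0.57 to 0.45. For this reason the 4 are called here by their sample names and not by a tissue.

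Fibrillar collagen genes show how unequal the 4 were. Col1a1, a chain of type I collagen, reached 580 CPM in Control 1 and 406 CPM in Induced 4, but only 78.7 CPM in Control 2 and 47.4 CPM in Induced 3, within the 30.1 to 94.6 CPM of the 8. Col1a2, its partner chain, was at 552, 57.8, 16.2 and 255 CPM in Control 1, Control 2, Induced 3 and Induced 4 against 4.98 to 32.7 CPM. Only Induced 3 fell inside the range of the 8 there. Col3a1, a chain of type III collagen, was at 1686, 832, 907 and 1138 CPM against 306 to 739 CPM, and was called with a log2 difference of 1.07. Pdgfra, a receptor of fibroblasts, ranked the 4 the other way round, with 121 CPM in Control 1 and 146 CPM in Induced 4 but 227 CPM in Control 2 and 216 CPM in Induced 3, against 100.98 to 153 CPM.

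Of the 25 measured fibroblast genes 22 were higher on average (median log2 difference 1.51), but only 3 (Col3a1, Col12a1 and Lox) were called, beside 3.1% of all genes. Col12a1, a collagen on the surface of fibrils, had the largest difference of the named genes (4.44), with 100.8, 10.2, 3.895 and 35.5 CPM in the 4 and 0.721 to 2.50 CPM in the 8. Lox, which crosslinks collagen and elastin, was at 50.6, 6.79, 5.31 and 82.2 CPM against 0.772 to 4.602 CPM. In both, all 4 were above the 8, but Control 1 and Induced 4 were several times as high as the other pair. Without Control 1 and Induced 4 the list's median was 0.60, and without Control 2 and Induced 3 it was 2.25. Removing the coding length trend gave 1.82. Col6a1, a chain of type VI collagen, kept the summed level of the list high in Induced 3: it stood at 1800 CPM there, 1180 CPM in Control 2, 974 CPM in Induced 4 and 689 CPM in Control 1, against 328 to 1016 CPM in the 8. Summed over the 25 genes, the 4 held 3985 to 5706 CPM and the 8 held 1915 to 4100 CPM.

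Myofibroblast and matricellular genes had a list level of 1.83 in Control 1 and 0.97 in Induced 4. It was 0.62 in Control 2 and 0.31 in Induced 3, with the 8 from -0.37 to 0.38. Fn1, fibronectin, was at 247, 22.2, 23.3 and 117 CPM in Control 1, Control 2, Induced 3 and Induced 4 against 3.74 to 18.7 CPM. It was the only gene called of 19 measured in its list (median 0.88), beside 3.1% of all genes called higher. Postn, periostin, was at 313, 40.4, 15.5 and 145 CPM against 2.38 to 16.9 CPM, so Induced 3 overlapped the 8. Acta2, the smooth muscle actin of myofibroblasts, was at 29.7, 58.8, 37.8 and 44.0 CPM against 13.97 to 39.7 CPM, highest in Control 2 and not in Control 1. Among the proteoglycans, Dcn, decorin, was at 144, 7.88, 4.00 and 28.1 CPM against 2.35 to 9.58 CPM and Lum, lumican, at 74.9, 2.71, 0.759 and 10.0 CPM against 0.154 to 1.34 CPM. Decorin was outside the range of the 8 in Control 1 and Induced 4 alone. Of the 10 measured proteoglycan genes 1 (Chad) was called, beside 3.1% of all genes, and it was at under 1 CPM in every tumour.

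Timp3, an inhibitor of metalloproteinases bound to the matrix, was higher in all 4, at 21.4, 7.10, 8.04 and 8.87 CPM against 0.540 to 2.11 CPM (log2 difference 3.07). It lies inside Syn3, and 21.3% of its exonic bases are shared with that gene on the opposite strand. Mmp9, a gelatinase of neutrophils and macrophages, was at 56.7 CPM in Control 2 alone, with 4.23 CPM or less in every other tumour. Ctsk, a collagen-cleaving cathepsin, was also highest in Control 2, at 50.7 CPM, then 23.4 CPM in Control 1 and 10.5 CPM in Induced 4, while Induced 3 at 2.17 CPM was inside the 0.944 to 4.31 CPM of the 8. In the list of matrix proteases and inhibitors, 16 of 19 measured genes were higher on average and 3 were called, beside 3.1% of all genes called higher. The list's level was 1.06 in Control 1, 0.48 in Induced 4 and 0.34 in Control 2, with the 8 from -0.25 to 0.25. Induced 3, at -0.03, lay within that range.

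**Figure D4:**
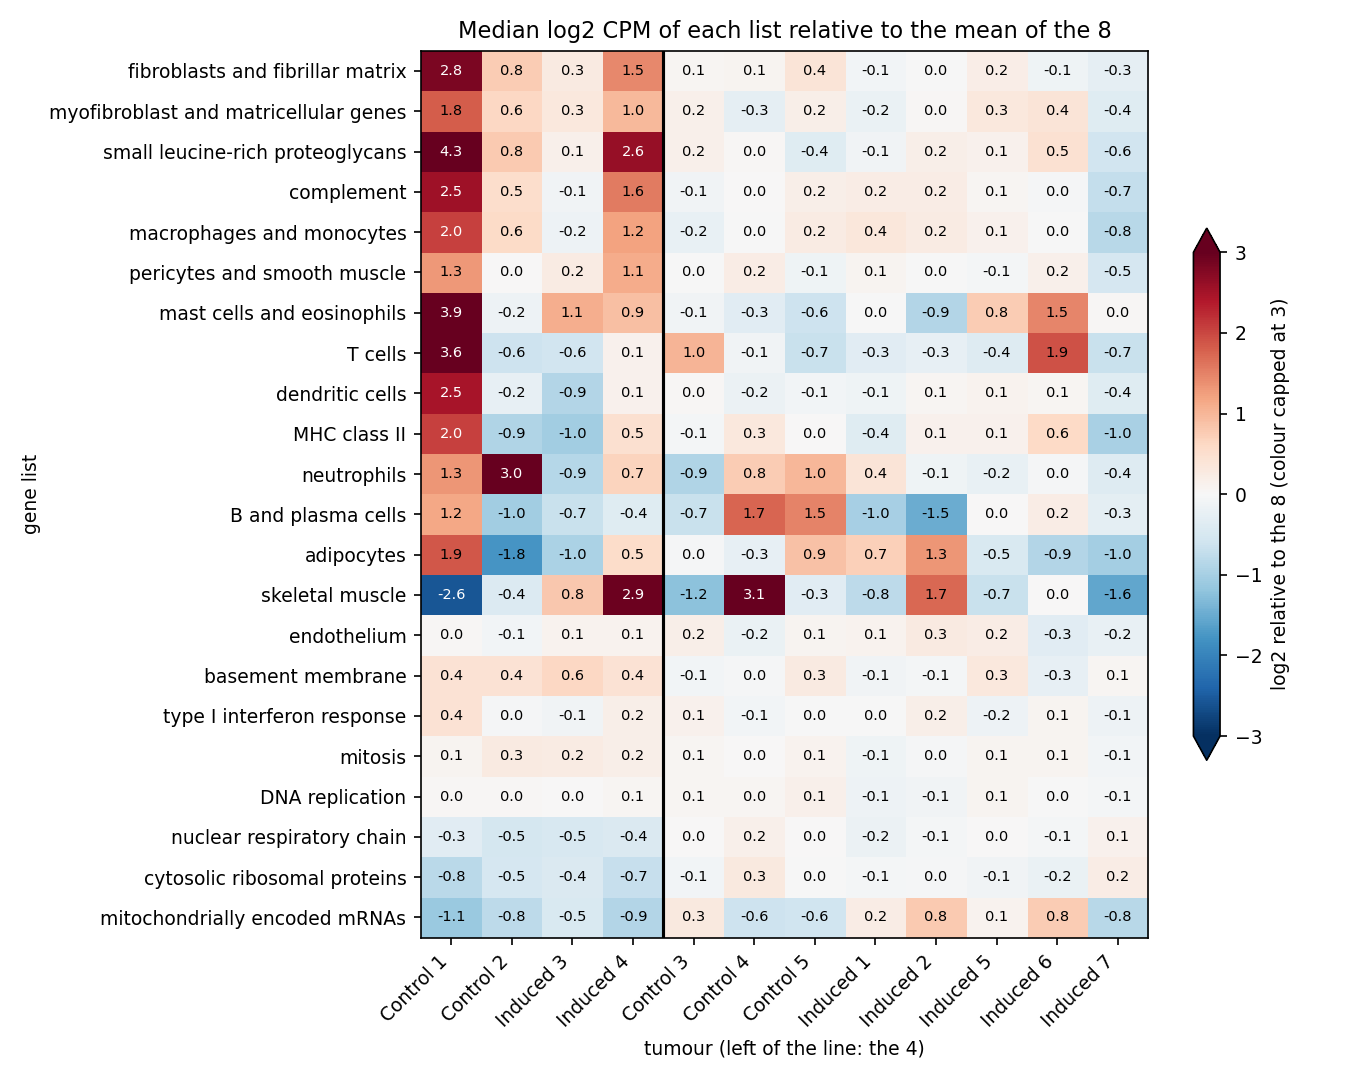
Level of 22 gene lists (rows) in each tumour (columns), as the median over the list of log2 CPM minus the mean of the 8; the 4 tumours are left of the line, red is higher and blue lower, and the colour is capped at 3. The fibroblast, proteoglycan, complement and macrophage rows are red in Control 1 and Induced 4, and the respiratory chain, ribosomal and basement membrane rows differ in all 4 from the whole range of the 8.

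Macrophage genes leaned towards the 4 in sum but not in each tumour. All 24 measured genes were higher on average (median log2 difference 0.97), and 1 was called, where 3.1% of all genes were: C1qb, a chain of the first complement component. The list's level was 2.04 in Control 1, 1.20 in Induced 4 and 0.57 in Control 2, but -0.16 in Induced 3, with the 8 from -0.83 to 0.35. Csf1r, the receptor of the macrophage growth factor, with 15.1% of its exonic bases on those of Hmgxb3 on the opposite strand, was at 104, 35.8, 15.5 and 66.7 CPM in Control 1, Control 2, Induced 3 and Induced 4 against 5.98 to 21.7 CPM. The list's median was 0.63 without Control 1 and 0.08 without Control 1 and Induced 4. Summed levels were 615 to 3482 CPM in the 4 and 378 to 931 CPM in the 8.

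Complement genes were arranged alike, with levels of 2.54 in Control 1, 1.57 in Induced 4, 0.54 in Control 2 and -0.11 in Induced 3. C3, the central component, was at 122, 34.2, 8.09 and 49.0 CPM against 5.71 to 20.1 CPM. Of 15 measured genes all were higher on average (median 1.37). Among them 1 was called, beside 3.1% of all genes: C1qb, which is in the macrophage list too. The median was 0.74 without Control 1 and 0.09 without Control 1 and Induced 4.

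Siglec1, Tlr8, Tlr9 and Npl, all among the 15 largest differences, were higher in each of the 4 than in any of the 8. Siglec1, a sialic acid receptor of macrophages, was at 131, 28.7, 15.8 and 80.3 CPM against 5.48 to 13.7 CPM (log2 difference 2.69). Tlr8, an endosomal sensor of RNA, was at 26.9, 6.86, 6.68 and 13.2 CPM against 0.926 to 2.94 CPM (2.91), and Tlr9, its counterpart for DNA, at 35.6, 7.49, 5.11 and 12.5 CPM against 1.47 to 3.70 CPM (2.34). Npl, a lyase of sialic acid breakdown, was at 19.6, 7.46, 2.53 and 17.6 CPM against 0.379 to 1.71 CPM (3.57). The order of the 4 followed the macrophage list, with Control 1 the highest and Induced 3 the lowest; that all 4 are above the 8 is part of the rule that took these genes.

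Genes of T cells, MHC class II and mast cells were highest in Control 1. The T cell list was at 3.58 there, against -0.63, -0.58 and 0.13 in Control 2, Induced 3 and Induced 4, and the highest of the 8 was Induced 6 at 1.90. Cd8a, the coreceptor of cytotoxic T cells, was at 10.4 CPM in Control 1, listed at 0 in Control 2 and Induced 3 and 0.110 in Induced 4, with up to 2.17 CPM in the 8. MHC class II genes were at 2.04 in Control 1 but -0.89 in Control 2 and -1.04 in Induced 3. Cd74, the invariant chain, was at 257, 22.6, 17.2 and 50.7 CPM against 16.9 to 51.7 CPM. Mast cell genes were at 3.89 in Control 1, with Cpa3, a mast cell protease, at 18.0 CPM and 3.59 CPM or less in the other 11. The medians of the T cell, dendritic cell and MHC class II lists over the 4 (0.89, 0.66 and 0.42) became -0.97, -0.16 and -0.40 when Control 1 was left out.

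Neutrophil genes were highest in Control 2. The list was at 3.04 there, 1.33 in Control 1, 0.66 in Induced 4 and -0.85 in Induced 3, with the 8 from -0.91 to 0.99. S100a9, a calcium-binding alarmin of neutrophils, had 47.7 CPM in Control 2 but 11.9, 2.63 and 6.99 CPM in Control 1, Induced 3 and Induced 4, against 1.37 to 10.2 CPM. Il1b, an inflammatory cytokine, had 47.3 CPM in Control 1, 36.6 CPM in Control 2 and 7.72 CPM in Induced 4, but 2.23 CPM in Induced 3, below all 8 (5.90 to 14.5 CPM). Induced 3 in turn had the most granzyme mRNA of all 12, with Gzmf, which shares 16.4% of its exonic bases with Gm4022, at 95.9 CPM against 1.18 to 10.6 CPM elsewhere and Gzmd at 61.0 CPM against 0.833 to 12.2 CPM. The other genes of killer cells did not follow these serine proteases: the level of the 14-gene list in Induced 3 was 0.15, within the -0.55 to 0.61 of the 8, and the highest was Induced 4 at 1.07.

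Skeletal muscle and fat genes did not line up with the split. Muscle genes were at 2.95 in Induced 4 and 0.81 in Induced 3, but at -2.58 in Control 1 and -0.40 in Control 2, and the highest tumour of all was Control 4 of the 8, at 3.11. Acta1, the actin of skeletal muscle, was at 0.478, 13.9, 26.2 and 177 CPM in Control 1, Control 2, Induced 3 and Induced 4 and from 3.20 to 94.8 CPM in the 8. Adipocyte genes were at 1.87 in Control 1 and -1.77 in Control 2, with the 8 from -1.02 to 1.33. Adipoq, adiponectin, had 6.35 CPM in Control 1 and 2.69 CPM in Induced 4, and listed at 0 in Control 2 and Induced 3. The amount of muscle or fat RNA in a piece therefore did not follow the split.

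**Figure D5:**
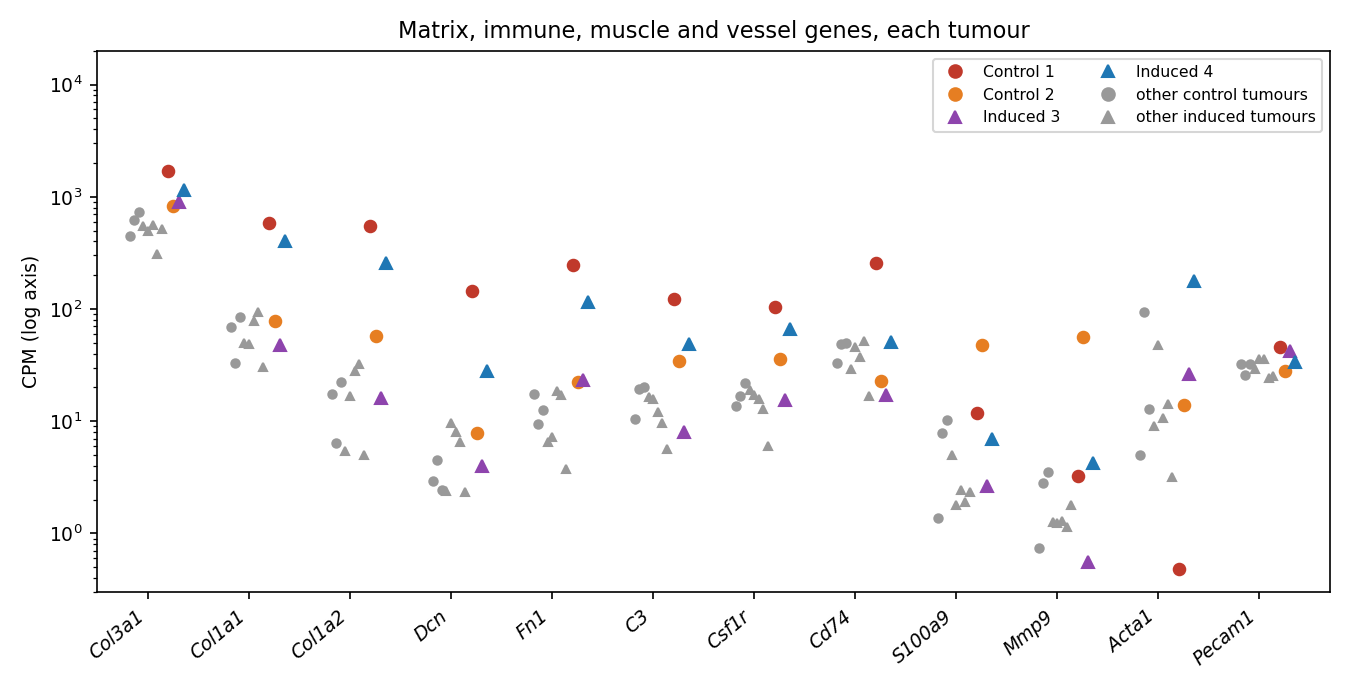
CPM on a log axis of 12 matrix, immune, muscle and vessel genes, 1 point per tumour; the 4 tumours are coloured, the 8 grey, circles control and triangles induced. Control 1 and Induced 4 alone stand above the grey points for Col1a1 and Dcn, these and Control 2 for C3 and Csf1r, and all 4 for Fn1. Control 2 stands above the grey points for Mmp9 and, with Control 1, for S100a9, and Pecam1 does not separate the sets.

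Endothelial genes showed little of the split, while pericyte genes were high in Control 1 and Induced 4. The pericyte and smooth muscle list was at 1.30 and 1.11 in these tumours, 0.01 in Control 2 and 0.24 in Induced 3, with the 8 from -0.51 to 0.23. Its median of 0.74 over 12 genes was -0.08 without Control 1 and Induced 4. Of these genes 0 were called, beside 3.1% of all genes called higher and 4.01% called lower. The lymphatic list, with 4 measured genes, was at 1.37 in Control 1 and 1.27 in Induced 4 against 0.65 or less in the other 10. The endothelial list had a median of 0.03 over its 25 genes, 13 higher and 12 lower. Among them 1 was called higher, beside 3.1% of all genes: Clec14a, an endothelial lectin at 2.21 to 3.38 CPM in the 4 and 0.259 to 1.79 CPM in the 8. Cdh5, the cadherin of endothelial junctions, was at 43.8, 35.8, 47.0 and 39.7 CPM in the 4 and 31.2 to 62.4 CPM in the 8. Cldn5, a short tight junction gene, was at 1.84 to 5.94 CPM against 2.17 to 11.6 CPM. Lama4, a laminin chain of vessel basement membrane, was at 23.6, 8.54, 11.9 and 17.4 CPM against 3.26 to 7.18 CPM in the 8. It was the only gene called of the 15 basement membrane genes, beside 3.1% of all genes called higher.

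All 15 basement membrane genes were higher on average in the 4 (median 0.50), which have long coding parts (median 5397 bases). The list's level was 0.44, 0.43, 0.62 and 0.42 in Control 1, Control 2, Induced 3 and Induced 4 and -0.25 to 0.32 in the 8. With the coding length trend removed the median was 0.02. Hspg2, the perlecan gene whose 3' part encodes endorepellin, was at 533, 606, 699 and 627 CPM in the 4 and 419 to 662 CPM in the 8. The 2 sets overlapped (616 ± 68.2 CPM, SD, n = 4, against 504 ± 76.5 CPM, SD, n = 8), and counts of the whole gene do not separate the knock-in from the resident gene.

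Genes of DNA replication and mitosis differed little in their medians, but the summed mitosis mRNAs were higher in the 4. DNA replication genes had a median of 0.02, and Mcm2, a helicase subunit, was at 115 to 120 CPM in the 4 and 97.4 to 122 CPM in the 8. Mitosis genes had a median of 0.16, and this was 0.02 with the coding length trend removed. They summed to 2487 to 2629 CPM in the 4 and 2061 to 2412 CPM in the 8. Of 21 mitosis genes 7 were above all 8 in all 4 tumours and 3 below, beside 10.7% and 14.2% of all genes. Of 24 DNA replication genes 6 were above all 8 and 2 below. Within these lists single genes still made the step in opposite directions. Kif20a, a mitotic kinesin with 29.3% of its exonic bases on those of Cdc23, was at 87.9, 92.7, 99.2 and 84.1 CPM against 22.4 to 43.6 CPM (log2 difference 1.49), while Birc5, survivin, was at 89.1, 82.0, 78.6 and 83.0 CPM against 111 to 167 CPM (-0.73). Their coding parts have 2661 and 420 bases, and the part of length in these 2 steps was not tested.

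The type I interferon list was near 0 (median 0.07). Of its 24 measured genes 0 were called, beside 3.1% of all genes called higher and 4.01% called lower. Above all 8 were 3 of them, beside 10.7% of all genes, and below all 8 was 1, beside 14.2%. Genes induced by interferon gamma had a median of 0.41, which rested on Control 1: their level was 1.21 there, 0.12 in Control 2, -0.24 in Induced 3 and 0.38 in Induced 4, with the 8 from -0.38 to 0.44. Bst2, tetherin, was at 487, 403, 401 and 467 CPM against 720 to 1010 CPM, and Ifih1, a cytosolic RNA sensor, at 158, 142, 132 and 148 CPM against 73.3 to 91.1 CPM. The former has a coding part of 516 bases and the latter of 3075. Bst2 and Ifih1 were not called. Some called genes were placed the other way about the median coding length of 1380 bases. Dpysl2, Sox9 and Nfib, lower in the 4, have 1716, 1521 and 1710 bases, and Uprt, higher in the 4, has 930. The part of coding length in the step of a single gene was not tested. In the integrated stress response list (median -0.17), Atf4, its central transcription factor, was at 310, 295, 325 and 373 CPM against 479 to 714 CPM. Asns, asparagine synthetase and a target of Atf4, overlapped, with 249 to 305 CPM against 169 to 277 CPM.

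The split was then used as a term in the comparison of induced with control tumours, which is the study's own question. The split came from the same counts, so the p-values of these tests are not independent of its choice. The biological coefficient of variation was 34.7% without the term and 23.5% with it, and the median SE of log2 fold changes was 0.205 and 0.146. A term read from the first component of the same counts lowers both by its choice, so this fall is no evidence for the split. With the term, 0 genes came past an adjusted p of 0.05 among 16955 (0%; edgeR quasi-likelihood test, two-sided, Benjamini-Hochberg), with a smallest adjusted p of 0.901. Unadjusted p-values below 0.05 were found for 503 genes (233 higher, 270 lower), where 848 would be reached if p-values were uniform. Limma-voom called 0, and DESeq2 called 1, Abi3.

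Abi3, an adaptor of actin regulation in leukocytes that overlaps Gngt2 on the opposite strand, was at 4.41, 3.48, 1.62, 3.42 and 3.03 CPM in Control 1 to Control 5, and at 1.00, 1.03, 1.62, 2.28, 0.834, 1.09 and 1.12 CPM in Induced 1 to Induced 7. Control 3 and Induced 3 and 4 overlap, and Induced 3 and 4 are the highest induced tumours. Its log2 fold change of induced over control was -1.26 ± 0.22 (SE; edgeR adjusted p = 0.901, DESeq2 adjusted p = 0.0109).

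The genes with the smallest p in this fit, none of which passed, are given as values. Positive fold changes of induced over control belonged to Qk, Plxna2, Fam126b, Hmga2 and Ttbk2 (29.9% of its exonic bases shared with Cdan1), and negative ones to Casp1, Bin2, Gngt2 (12.5% shared with Abi3), Pced1a and Zc3h12a. Hmga2, an architectural chromatin protein, was at 172, 251, 189, 176 and 188 CPM in the 5 control tumours and 206 to 342 CPM in the 7 induced tumours (log2 fold change 0.47 ± 0.14, SE). Control 2 lay inside the induced range. Casp1, the protease of inflammasomes, was at 27.6 to 51.4 CPM in the control and 19.9 to 39.0 CPM in the induced tumours (-0.36 ± 0.09, SE), with Control 1 and Control 2 the highest controls and Induced 4 the highest induced tumour.

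Among the 8 tumours alone, 3 control against 5 induced, 0 of 15351 genes passed (0%; edgeR, smallest adjusted p 0.99), with 567 at an unadjusted p under 0.05. DESeq2 and limma-voom also called 0. Without Control 3, edgeR called 1 gene, Cr2, a complement receptor of B cells (adjusted p 0.0143), which was at 10.9 and 9.71 CPM in Control 4 and Control 5 and 2.12 CPM or less elsewhere. Abi3 again had the smallest p (0.000459 unadjusted), and next among the lower genes that the rule names was Acta2, at 27.1, 29.5 and 39.7 CPM in Control 3 to 5 and 13.97 to 23.1 CPM in the 5 induced tumours (-0.80 ± 0.17, SE; edgeR adjusted p = 0.99). In the pair Induced 3 and Induced 4 it was at 37.8 and 44.0 CPM, inside the range of all 5 control tumours.

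The test of whether the difference between induced and control tumours itself differs between the 4 and the 8 passed 0 of 16955 genes (0%; edgeR interaction term, smallest adjusted p 0.199), with 671 at an unadjusted p under 0.05. It rests on 2 tumours in each of 2 groups. Limma-voom called 0. DESeq2 called 12, which were Actn2, Aqp1, Dll1, Herpud1, Ifi209, Il1b, Il1r1, Mmp3, Nos2, Osm, Slc1a4 and Socs3. Without Control 2, edgeR called 4 genes (Igsf9, Mmp3, Sema7a and Stc1, smallest adjusted p 0.0143), and without Control 1 the smallest adjusted p was 0.897.

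Slc1a4, a transporter of neutral amino acids, had the smallest p. It was at 21.3 and 20.7 CPM in Control 1 and Control 2 and 47.7 and 47.7 CPM in Induced 3 and Induced 4, with the 8 in between, at 25.5 to 39.1 CPM (interaction 1.38 ± 0.21 log2 units, SE; edgeR adjusted p = 0.199). Dll1, a Notch ligand with 20.5% of its exonic bases on an antisense gene, was placed the other way, at 23.1 and 20.2 CPM in Control 1 and Control 2 and 10.1 and 10.9 CPM in Induced 3 and Induced 4, with 19.5 to 39.7 CPM in the 8 (-1.42 ± 0.25, SE; edgeR adjusted p = 0.445). Socs3, an inhibitor of cytokine signalling, was at 84.2 and 68.0 CPM against 31.8 and 40.3 CPM, with 38.4 to 52.6 CPM in the 8 (-1.05 ± 0.22, SE; edgeR adjusted p = 0.895). Control 1 and Control 2 were the lowest of the 12 for Slc1a4 and the highest for Socs3, while for Dll1 they lay within the range of the 8.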

How the data were processed

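The table the authors deposited for 12 tumours was analysed. Per the labels' protocols, RNA was column-purified and 1.3 ug was used for an mRNA library. The labels' growth and treatment texts describe another cell culture and not these tumours, so they were not used, and the extraction text was taken as written. The submitters' processing notes name the build GRCm38. No aligner, counter or strand setting is named there or in the labels. The table holds, per the file headers, raw counts for each Ensembl gene, and the rlog transform by the authors, a log2 scale, which served only for an alternative principal component analysis.

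Of 25116 rows, 16955 passed filterByExpr by treatment and set (minimum count 10). Counts were fitted with edgeR 4.0.16 in R 4.3.3 (TMM factors, robust quasi-likelihood test, Benjamini-Hochberg over all genes in the fit). Log2 differences of the 4 over the 8 have treatment as covariate. CPM are scaled by TMM factors, and log2 CPM has a prior count of 2. Lengths, gene types, positions and exon overlap came from GENCODE release M21, with coding length that of the longest coding sequence of a gene. The fit was tested on simulated counts. The members, the gene lists and the tests were chosen with earlier results of these data known. The rule named the 15 largest called differences in each direction whose mean log2 CPM exceeded 1 and whose symbol is not a predicted name, per list its defining genes and the 4 largest differences, the 5 smallest p-values in each direction of each test, and Hspg2; other genes are said to be chosen after their values were seen. Some genes that the rule takes are not reported here. No 2 libraries agreed within sampling noise (chi-square per gene 13 to 220 over 66 pairs). Tumours are counted as separate animals by their titles alone, and p-values measure the spread between these samples. Alternatives were RLE and upper quartile factors, other filters, DESeq2 1.42.0, limma-voom 3.58.1, other call sizes, a replicate block, each tumour left out, and, added after the data were seen, removal of length trends (loess span 0.3) and of pairs of the 4.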

Additional observations from a re-analysis of the deposited data

Results flagged for a closer look

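In groups of 4 to 8 tumours, 168 sets of values were checked for a tumour far from the rest by Dixon's 95% limit. They were list levels relative to the mean of the 8 (log2 scale), total count, percent of mitochondrial counts, slope with coding length and first principal component. The last of these chose the 4. Marked were 16, where about 8.4 would be marked by chance in independent sets. These sets are not independent, since the groups share tumours and some lists share genes. Control 1 stood far above the other control tumours in 7 lists: fibroblasts (2.821), small leucine-rich proteoglycans (4.314), pericytes and smooth muscle (1.3), dendritic cells (2.481), mast cells and eosinophils (3.891), complement (2.536) and, among the 4, mammary epithelium (1.432). Induced 4 stood above the other induced tumours in fibroblasts (1.452), proteoglycans (2.61) and complement (1.568). Induced 3 was the highest of the 4 in basement membrane genes (0.6191, next Control 1 at 0.4369), a list that spans little within the 4.

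The rest were single tumours. Induced 6 was high in T cell genes among induced tumours (1.904, next Induced 4 at 0.129). Induced 7 was low in complement among the 8 (-0.7164) and had the largest total count of the 8 (28372821, next Control 4 at 22695141). Control 5 was marked in DNA replication (0.1428) and Control 2 in oncofetal genes (0.1313), both of them small differences.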

How the results depend on the processing

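Counts of called genes depended most on the size rule and on which tumours were in the fit. At a log2 difference of at least 0.58 there were 1025 higher and 1458 lower, and at 2 there were 128 and 264. A filter of 1 CPM in every tumour of a set left 395 lower, control tumours alone gave 1162 higher (54.2% of the calls higher, against 43.6% at first), induced tumours alone 1035 lower, and removal of the transcript length trend 442 lower (59.1% higher). Without Control 1 and Induced 4 there were 1063 lower, and without Control 2 and Induced 3 there were 1578 higher (62.2% of calls). Leaving out each tumour gave 529 to 877 higher, the most without Induced 3, and 629 to 839 lower. Size factors, DESeq2, limma-voom and no covariate kept both counts within 1.5 times.

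The gap on the first component was 57.6% of the range with genes scaled to unit variance and 58% with a mean log2 CPM over 5; leaving out each tumour gave 30.2% to 48.5%. The total count difference was 2225485 to 4769442 with each tumour left out (exact permutation p 0.0273 to 0.352). For treatment with the split term DESeq2 called 1 gene and each tumour left out 0 (edgeR adjusted p at the least 0.311); within the 8 leaving out a tumour gave 0 to 1; for the interaction DESeq2 called 12 and leaving out a tumour gave 0 to 4.

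Of 38 list medians, 21 had the other sign under at least 1 alternative, 8 of them with a first median over 0.3 in size. These were interferon gamma genes (down to -0.01951), MHC class II (-1.041 to 1.235), adipocytes (-2.271 to 1.04) and skeletal muscle (-2.768 to 1.858), and lymphatic endothelium with no filter (-0.2763), dendritic cells with the 1 CPM filter (-0.1173), in induced tumours alone (-0.1089), with limma-voom (-0.00795), without Control 1 (-0.1579) and without Control 1 and Induced 4 (-0.5842), T cells in induced tumours alone (-0.3555), without Control 1 (-0.9673) and without Control 1 and Induced 4 (-1.255), and pericytes without Control 1 and Induced 4 (-0.08109). With each tumour left out, the dendritic cell median ran from -0.1579 to 1.242 and the T cell median from -0.9673 to 1.414. The cause was not tested, other than by the tumours left out.

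Whether replicate numbers pair the tumours could not be decided from these counts. Deviations of same-numbered tumours correlated at -0.281, -0.454, -0.46, -0.457 and 0.164 for numbers 1 to 5. For each of the numbers 1 to 4, only 1 tumour of the pair is among the 4. The split itself can therefore lower these values, whether or not the tumours are paired. Number 5, with both tumours outside the 4, is the only pair that does not cross the split. With a replicate block over 10 tumours, 623 genes were called higher and 864 lower, and treatment called 0 genes (edgeR smallest adjusted p 0.299).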

Other observations

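Several gene groups varied among the 8 tumours without reference to the split. B cell genes were high in Control 4 and Control 5, with list levels of 1.75 and 1.49 against -1.496 to 1.17 in the other 10. Cr2 was at 10.9 and 9.71 CPM there and Ms4a1, the CD20 antigen, at 7.60 and 4.93 CPM. Jchain, which joins antibodies in plasma cells, was instead at 6.18 CPM in Control 1 and 0.776 CPM or less elsewhere. Globin mRNA of red cells was highest in Induced 5, with Hbb-bs at 254 CPM against 8.38 to 90.3 CPM in the other 11.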
